A study of Mus musculus with 2 samples.

Results

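The S100 proteins are small calcium sensors, and 9 of their genes were described here in tumour cells of the mouse pancreas: S100a6, S100a4, S100a10, S100a11, S100a13, S100a14, S100a16, S100a1 and S100g. All 9 were found by symbol among the 33696 features of the count matrix, which held 18 symbols of the S100 family. The 9 genes were selected on earlier results from these same cells, so their differences between the cell classes below are a description and were not tested. Cells came from 1 library. Of 22178 cell barcodes, 21361 were kept. These had 2000 or more unique molecular identifiers (UMIs, the count of captured molecules), 1000 or more genes, and a mitochondrial share of UMIs no higher than 15%.

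The cells were KPCY 6419c5, a mouse line established from pancreatic ductal adenocarcinoma. Per the labels, they carried a Cas12a adenine base editor (Cas12a-ABE), which writes A-to-G edits used as a lineage record in a method called BASELINE. Clones 76 and 84 had been edited for 19 days, were mixed in equal numbers and were read together with a droplet 3′ v4 kit. A library of clones 1, 32, 33, 52 and 76, also at 19 days, was not analysed here. Per the labels each was an isolated clone, every cell carried the editor, and no unedited cells were used. The barcodes carry no clone label here, so the matrix is 1 sample and its cells are not replicates. No p-value is given, and every interval below is a 95% interval of counting error only.

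Cells were divided by the expression of other genes, so the classes themselves rest on the measured values. A cells had at least 2 UMIs of Pde10a, Plcb1, Galnt18, Arhgap15 and Ceacam1 together, and at least 3 times as many as of the B genes. B cells were chosen by the same rule with S100a7a, Rgs20, Hs6st2, Ccbe1, Ctse and Mal. S100a7a is itself an S100 gene and is not among the 9. There were 7816 A cells, 8936 B cells and 4609 cells in neither class. Neither A nor B can be named as clone 76 or clone 84 from these data. A cells had a median of 4700 UMIs and 3.19% mitochondrial UMIs, and B cells a median of 5441 UMIs and 1.89%. The 6 ductal markers were found in both classes, at a summed level of 2686 CPM (UMIs in 1000000 UMIs of the class) in A cells and 7473 CPM in B cells. Cpa1, Amy2a2 and Ctrb1 of the 5 acinar markers, and Ins1, Gcg and Sst of the 5 endocrine markers, had 0 UMIs in both classes. The acinar list summed to 13.7 CPM in A cells and 4.38 CPM in B cells, from Prss2 (10.0 and 4.21 CPM) and Cela1 (3.65 and 0.17 CPM). The 6 fibroblast markers summed to 145 CPM in A cells and 6.71 CPM in B cells. Acta2 made up 144 CPM of the A sum, and Col1a2, Dcn and Lum were at 0. The immune list was at 3.45 and 0.95 CPM, and the erythroid list at 0.42 and 2.98 CPM with Hbb-bs at 0. The endothelial list was at 33.5 and 8.55 CPM with Kdr at 0, and Egfl7 made up 32.6 and 7.75 CPM of these sums.

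S100 proteins bind calcium through a pair of EF-hand loops, and most act as dimers. Calcium opens a groove that grips a partner protein, often an annexin, a myosin heavy chain or a cytoskeletal protein. Several are also released and act on receptors such as RAGE and TLR4, and S100 genes are prominent in ductal pancreatic cancer. S100g is the exception in this set: it encodes calbindin-D9k, a monomer that buffers and ferries calcium in absorptive epithelium and is a classic vitamin D target. The S100a genes sit side by side on chromosome 3 with the epidermal differentiation genes, whereas S100g is on the X chromosome.

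Promoter sequences are shown for 4 of the genes because they differ in direction: S100a6 and S100a11 were higher in B cells, and S100a4 and S100g in A cells. They are the 250 bases before the annotated start from RefSeq, on build GRCm38.p6, read 5′ to 3′ on the gene's strand. That build differs from the one used for the counts. Of the 9 genes, 7 had an entry, and S100a10 and S100a14 had none. The positions are chr3:90612644-90612893 on the plus strand for S100a6 and chr3:90603520-90603769 on the plus strand for S100a4. They are chr3:93520246-93520495 on the plus strand for S100a11 and chrX:162964600-162964849 on the minus strand for S100g. Capitals mark a TATA box (TATAAA), an AP-1 site (TGANTCA), a GC box (GGGCGG) or a CCAAT box (CCAAT), on either strand.
S100a6: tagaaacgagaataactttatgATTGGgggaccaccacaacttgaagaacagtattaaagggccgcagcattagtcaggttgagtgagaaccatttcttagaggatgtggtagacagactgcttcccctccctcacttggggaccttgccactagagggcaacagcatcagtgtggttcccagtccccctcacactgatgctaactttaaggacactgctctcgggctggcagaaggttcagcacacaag
S100a4: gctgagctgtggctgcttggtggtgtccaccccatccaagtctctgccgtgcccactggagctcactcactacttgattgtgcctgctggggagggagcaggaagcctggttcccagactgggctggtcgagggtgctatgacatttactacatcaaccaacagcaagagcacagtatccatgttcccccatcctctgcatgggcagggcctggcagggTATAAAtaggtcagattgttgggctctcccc
S100a11: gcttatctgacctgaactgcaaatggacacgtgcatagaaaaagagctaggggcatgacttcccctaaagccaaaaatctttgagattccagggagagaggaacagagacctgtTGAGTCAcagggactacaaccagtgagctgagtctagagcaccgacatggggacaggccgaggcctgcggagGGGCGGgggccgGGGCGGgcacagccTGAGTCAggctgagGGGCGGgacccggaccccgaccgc
S100g: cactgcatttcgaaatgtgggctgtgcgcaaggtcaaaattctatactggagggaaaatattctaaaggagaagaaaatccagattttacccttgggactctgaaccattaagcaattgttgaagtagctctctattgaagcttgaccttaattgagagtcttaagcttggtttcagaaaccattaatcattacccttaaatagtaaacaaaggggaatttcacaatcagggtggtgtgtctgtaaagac

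S100a4 was the one of the 7 genes with an entry that had a TATA box, 31 bases before the start. Of 32851 RefSeq promoters, 12.4% held one in the same 250 bases. The S100a11 window held an AP-1 site 136 and 38 bases before the start and a GC box at 64, 52 and 24 bases. These motifs were found in 6.75% and 32.7% of promoters. S100a6 had a CCAAT box on the reverse strand 228 bases before the start (33.8% of promoters), and the S100g window held none of the 4. An E-box (CANNTG), not in capitals, was found in 66.2% of promoters and in those of S100a6, S100a11, S100a13, S100a16 and S100g. S100a1 and S100a13 start close together on opposite strands, and their windows of 300 bases shared 204 bases. These matches describe letters in a window and say nothing of binding.

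The S100 genes were divided in direction between the classes: 7 of 9 were higher in B cells and 2, S100a4 and S100g, were higher in A cells. Of the 8800 genes that reached 10 CPM in A or B cells, 3303 were higher in B cells and 5497 in A cells. At a 2-fold difference, 5 of 9 were higher in B cells and 1 in A cells. Within cells of 3% or more mitochondrial UMIs the B count was 4, with S100a16 at a log2 ratio of -0.89. Of those 8800 genes, 7.26% were at least 2-fold higher in B cells and 10.3% in A cells. The rule that set the classes and the choice of the 9 genes used this same contrast, so nothing is read from that count. The median log2 ratio of A over B was -1.12 for the 9 genes and 0.17 for the 8800. Summed, the 9 genes made up 1.78% of all UMIs in A cells and 3.28% in B cells, a log2 ratio of -0.88 (interval -0.89 to -0.88). Without S100a6 the sums were 4012 and 9134 CPM, a log2 ratio of -1.19. Levels are 3′ counts that were not scaled by length, so they are compared here between classes for 1 gene at a time.

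**Figure D1:**
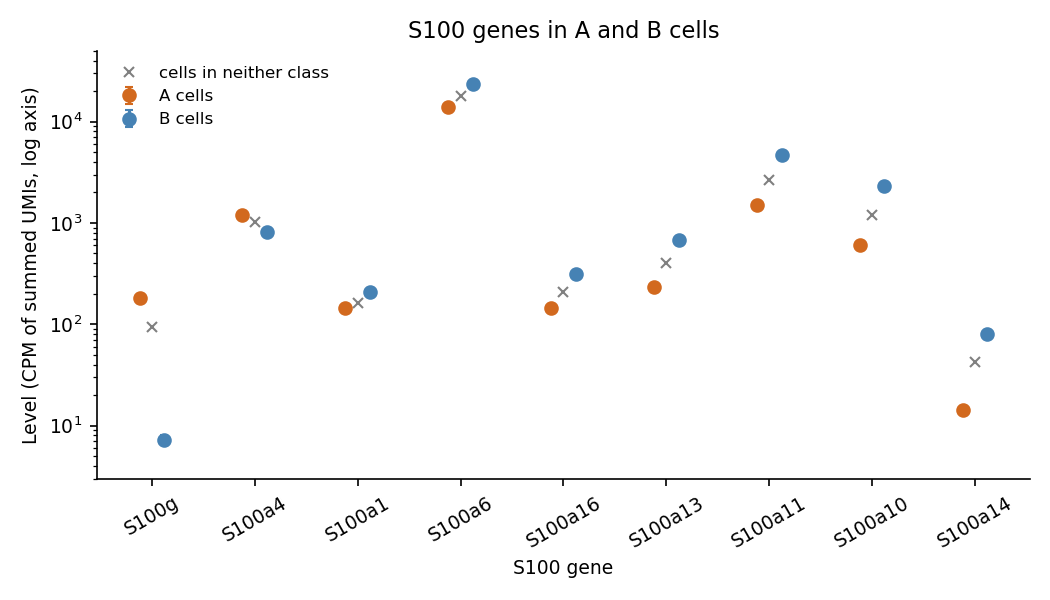
The plot of S100 levels by class shows, for each gene on the x axis, the level on a log axis in CPM of summed UMIs. Points are A cells and B cells with 95% counting intervals, which are mostly smaller than the points, and crosses are cells in neither class; S100g and S100a4 are the 2 genes whose A point lies above the B point.

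S100a10 and S100a11 are the annexin partners of the set. S100a10, which has lost calcium binding and holds annexin A2 in a tetramer under the plasma membrane, had 24404 UMIs in A cells and 121019 in B cells. Its level was 606 CPM (interval 598 to 614) in A cells, 1196 CPM in cells of neither class and 2293 CPM (2280 to 2306) in B cells, a log2 ratio of -1.92. S100a11, which binds annexin A1, was at 1499 CPM (1487 to 1511), 2669 CPM and 4728 CPM (4709 to 4746), a log2 ratio of -1.66. The classes overlapped little in these genes even cell by cell. After each cell was thinned to 3000 UMIs, the median cell held 2 S100a10 UMIs in A and 7 in B, and 4 S100a11 UMIs in A and 14 in B. In 97.0% of all pairs of a B cell with an A cell the B cell had more S100a11, with ties shared equally, and the figure was 94.3% for S100a10. Thinning left out 410 A cells and 109 B cells with fewer than 3000 UMIs.

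Among the annexins, 11 of 12 genes had at least 10 CPM, with a median log2 ratio of -0.47 against 0.17 over all genes. At least 2-fold higher in B cells were 2 of the 11 (7.26% of all genes), and 1 was in A cells (10.3% of all genes). Anxa2, the partner of S100a10, was at 584 CPM in A cells and 1283 CPM in B cells, a log2 ratio of -1.14. Anxa1, the partner of S100a11, was at 201 and 378 CPM, a log2 ratio of -0.91. Anxa10 had the widest gap, at 4.47 and 107 CPM (log2 ratio -4.59), and Anxa11 lay on the other side, at 98.9 and 43.8 CPM (1.18). Ahnak, a giant scaffold that binds the S100a10 and annexin A2 complex, was at 324 and 847 CPM, a log2 ratio of -1.39.

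S100a6 (calcyclin), which binds annexins and the calcyclin-binding protein Cacybp, had more UMIs than any other feature in both classes. It gave 555056 UMIs in A cells and 1251474 in B cells, which was 77.4% and 72.2% of the UMIs of all 9 genes. Its level was 13782 CPM (13746 to 13819) in A cells, 18059 CPM in neither class and 23715 CPM (23674 to 23757) in B cells, a log2 ratio of -0.78. Every thinned cell of both classes had an S100a6 UMI. The middle 80% of A cells held 25 to 58 UMIs in 3000 and of B cells 51 to 92, so the ranges overlapped at the edge, and 97.5% of A cells were below the B median of 70. Cacybp was at 393 and 462 CPM, a log2 ratio of -0.24.

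S100a13, which is needed for the release of fibroblast growth factor 1 by a route outside the classical secretory pathway, was at 234 CPM (229 to 238) in A cells and 679 CPM (672 to 686) in B cells. Its log2 ratio was -1.54, and a UMI was seen in 47.8% of thinned A cells and 83.8% of thinned B cells. Its cargo Fgf1 went the other way, at 19.6 CPM in A cells and 10.4 CPM in B cells (log2 ratio 0.92). S100a16, a broadly expressed member, was at 145 CPM (142 to 149) and 317 CPM (312 to 322), a log2 ratio of -1.12. S100a14, a gene of epithelia, had the fewest UMIs of the 9 over A and B cells together, with 575 in A cells and 4239 in B cells. Its level was 14.3 CPM (13.1 to 15.5) in A cells and 80.3 CPM (77.9 to 82.8) in B cells, a log2 ratio of -2.49. S100a14 had a UMI in 4.08% of thinned A cells and 21.2% of thinned B cells. S100a1, best known as a regulator of calcium cycling in heart muscle, was at 146 CPM (142 to 150) and 206 CPM (202 to 210), a log2 ratio of -0.50.

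S100a4 (metastasin), which binds the myosin heavy chain Myh9 and is linked to cell motility, was higher in A cells: 1185 CPM (1174 to 1195) against 823 CPM (816 to 831), with 1018 CPM in cells of neither class. The log2 ratio was 0.53 (0.51 to 0.54). Single cells overlapped widely, with a median of 3 UMIs in A cells and 2 in B cells after thinning, and a UMI in 90.04% (89.3 to 90.7%) and 80.2% of them. Myh9 differed little, at 264 and 284 CPM. Myh10 was at 2.81 CPM in A cells and 32.3 CPM in B cells, a log2 ratio of -3.52.

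The S100a4 difference moved with the mitochondrial share of the cells. Within cells under 2% mitochondrial UMIs, S100a4 was at 1007 CPM in A cells and 737 CPM in B cells, a log2 ratio of 0.45, from 222 A cells and 5484 B cells. Between 2 and 3% it was at 1070 and 943 CPM, a ratio of 0.18, from 2663 and 3253 cells. At 3% or more it was at 1258 and 1292 CPM, a ratio of -0.04 (interval -0.12 to 0.04), from 4931 and 199 cells. Inside each class S100a4 was likewise higher at a higher mitochondrial share: with cells ordered by that share and cut into 4 equal groups, it went from 1031 to 1353 CPM in A cells and from 713 to 1028 CPM in B cells. The part of the mitochondrial share in the class difference was not tested. In bins of UMIs per cell the S100a4 ratio was 0.78 at 2000 to 4000 UMIs, 0.60 at 4000 to 6000, 0.43 at 6000 to 8000 and 0.35 at 8000 or more. S100a10 stayed within -2.05 to -1.59 over the 7 bins.

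**Figure D2:**
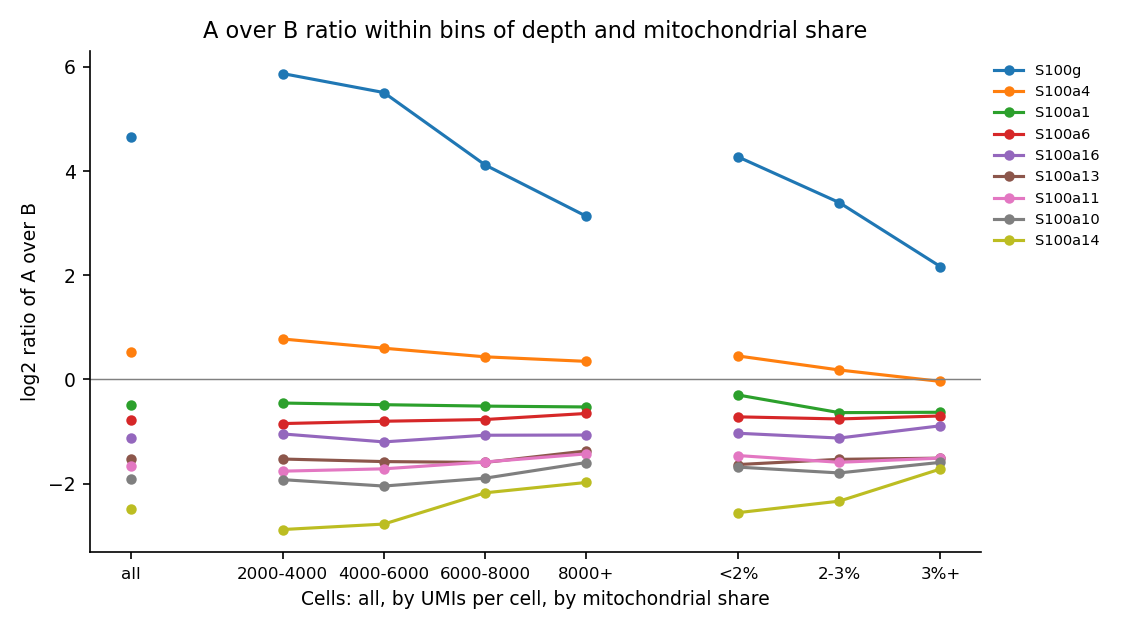
The plot of ratios within bins gives the log2 ratio of A over B (y axis) for all cells, for 4 bins of UMIs per cell and for 3 bins of mitochondrial share (x axis), 1 line per S100 gene. S100g runs from 5.87 to 3.13 over the UMI bins and from 4.27 to 2.17 over the mitochondrial bins, S100a4 meets the zero line in the last bin, and the other 7 lines stay below it.

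S100g had few UMIs in B cells, with 7366 UMIs in A cells and 382 in B cells. Its level was 183 CPM (179 to 187) in A cells, 93.3 CPM in neither class and 7.24 CPM (6.53 to 8.002) in B cells, a log2 ratio of 4.66 (4.51 to 4.81). After thinning it had a UMI in 27.1% of A cells (26.1 to 28.2%) and 1.48% of B cells (1.24 to 1.76%), and before thinning in 35.9% and 2.94%. Among B cells with no UMI of the A genes the share was 1.24% of 8448 cells, and among B cells with 1 or more it was 6.86% of 379. The trace in B cells was not separated from free RNA or cell doublets. Marked doublets were 1.89% of A cells, 2.32% of B cells and 9.37% of cells in neither class. With marked doublets removed, the S100g ratio was 5.13. It was 3.13 in cells of 8000 or more UMIs and 2.17 in cells of 3% or more mitochondrial UMIs. Over 4 equal groups of B cells from low to high mitochondrial share, S100g went from 3.87 to 4.56, 5.42 and 15.2 CPM.

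Among A cells, S100g was far from evenly spread. Its variance over its mean was 4.49 in thinned A cells, where counting error alone gives 1, and the 10% of A cells with the most S100g held 67.8% of its UMIs. No S100g UMI was seen in 5396 of 7406 thinned A cells, 1 UMI in 1159, and 5 or more in 163, up to 39 in 1 cell. The most abundant gene, S100a6, had a similar ratio of 4.25, at a mean of 40.8 UMIs per cell against 0.58 for S100g, and the corresponding 10% of A cells held 16.4%. The other 7 genes had ratios of 1.03 to 2.37 in A cells, lowest for S100a14 and highest for S100a4. The share of UMIs in the top 10% of A cells is high for any sparse gene. It was 46.1% for S100a16 and 43.9% for S100a1, both at a mean of 0.44 UMIs. For S100a13 it was 36.8% at a mean of 0.70, and for S100a14 100% at 0.04.

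**Figure D3:**
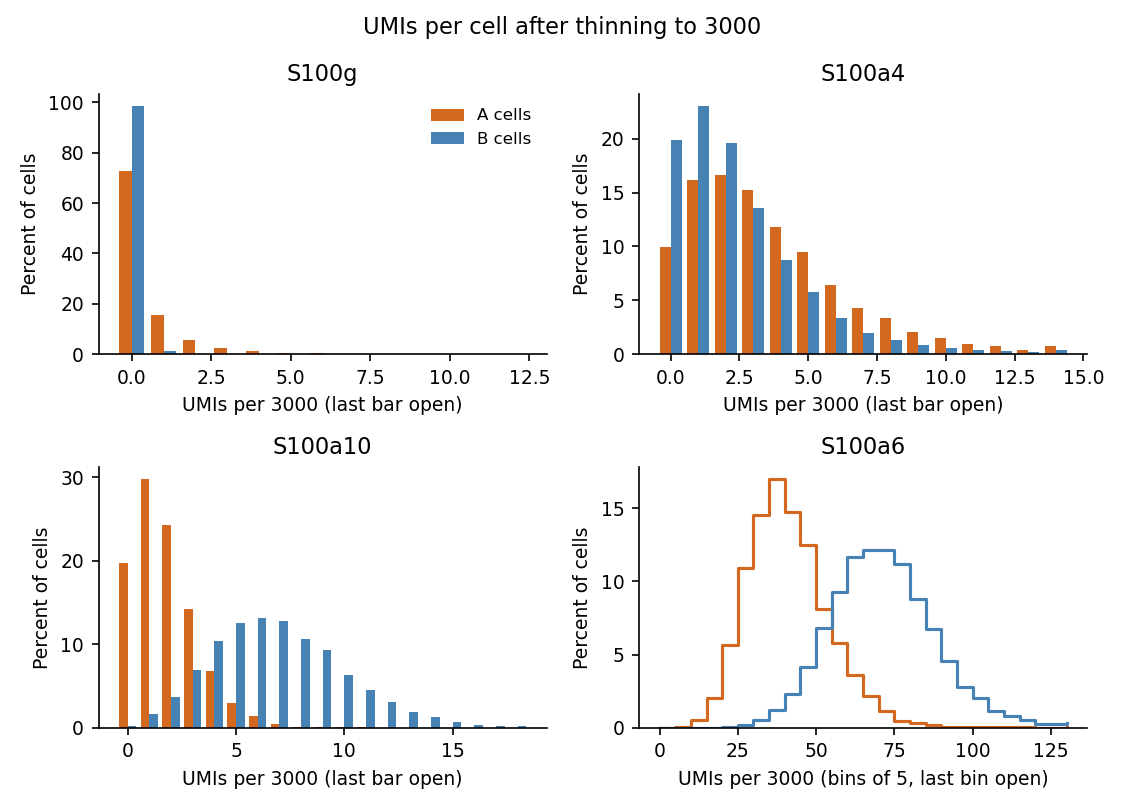
The plot of UMIs per cell shows the percent of thinned A and B cells (y axis) at each number of UMIs in 3000 (x axis) for S100g, S100a4, S100a10 and S100a6. The S100a10 and S100a6 distributions of the classes meet at their edges, those of S100a4 overlap, and S100g is at 0 in 72.9% of A cells and 98.5% of B cells.

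S100g was described by cell state inside the A cells. States inside each class were set on thinned cells by genes other than the 9, with at least 2 UMIs of a state's list and at least 3 times those of the opposing list. In 276 A cells with Epcam, Tm4sf20, Cldn4 and Cdh1, S100g was at 1079 CPM. It was at 101 CPM in 1727 A cells with Tnc, Acta2, Ptchd4 and Tagln. The log2 ratio was 3.42 (3.30 to 3.54). S100g was already known from these cells to go with the Epcam state when that state was chosen, so this ratio is a description and supports nothing. With a state rule of 1 UMI and none of the opposing list it was 2.46. S100g had a UMI in 68.1% (62.3 to 73.6%) and 19.3% of these cells. Using Epcam alone, S100g was seen in 54.8% of 562 A cells with an Epcam UMI and 24.9% of 6844 without.

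The other 8 S100 genes had ratios inside the range of -0.84 to 1.08 that held 90% of 8802 genes between these A states. S100a4 was at 1685 and 1113 CPM (log2 ratio 0.60), S100a1 at 247 and 127 CPM (0.96), S100a16 at 227 and 123 CPM (0.88) and S100a13 at 354 and 208 CPM (0.77). S100a10, S100a6 and S100a11 had ratios of 0.47, 0.35 and 0.14, and the S100a14 interval of -0.49 to 0.93 included 0. The Epcam-list cells had a median of 4314 UMIs and 3.84% mitochondrial UMIs, the Tnc-list cells 4876 UMIs and 3.13%. Over 4 equal groups of A cells from low to high mitochondrial share, S100g went from 89.7 to 117, 164 and 354 CPM. Over 4 groups by UMIs it went from 262 in the shallowest to 207, 164 and 134 CPM in the deepest. The part of depth and mitochondrial share in the state difference was not tested.

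In B cells the states were set by the squamous keratinocyte genes Krt14, Sprr1a, Krt6a and Krt17 (437 cells) and by Areg, Btc and Cftr (3137 cells). S100a4 was at 1180 CPM in the Krt14-list cells and 693 CPM in the Areg-list cells, a log2 ratio of 0.77 (0.71 to 0.82). S100a1 was at 310 and 186 CPM (0.73), and S100a13 at 936 and 651 CPM (0.52). For comparison, 90% of 8231 genes lay between -0.51 and 0.62, so S100a4 and S100a1 were outside that range and S100a13 inside it. S100g was also outside it, at 11.2 and 5.06 CPM (1.15, interval 0.51 to 1.75), a level near its trace in B cells as a whole. With a state rule of 1 UMI and none of the opposing list, the ratios were 0.44 for S100g, 0.47 for S100a1 and 0.62 for S100a4. The B-high genes S100a10, S100a11, S100a6 and S100a16 differed by 0.09 to 0.21. S100a14 was lower in the Krt14-list cells, at 74.3 against 87.5 CPM (-0.23, interval -0.45 to -0.02). The Krt14-list cells had a median of 5940 UMIs and the Areg-list cells 5315.

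**Figure D4:**
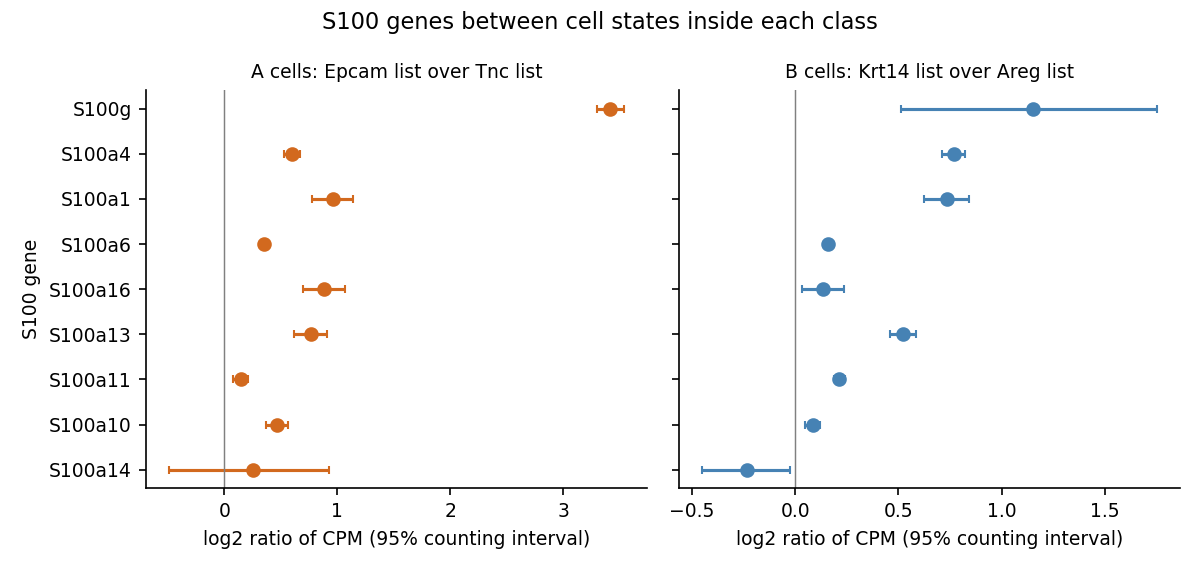
The plot of state ratios gives, for each S100 gene (y axis), the log2 ratio of CPM between Epcam-list and Tnc-list A cells (left) and between Krt14-list and Areg-list B cells (right), with 95% counting intervals. S100g lies at 3.42 on the left, and S100a4 and S100a1 lie at 0.60 and 0.96 on the left and 0.77 and 0.73 on the right; the 2 x axes differ in range.

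Correlations between S100 genes across the cells of a class were low. Pearson's r of log2(UMIs + 1) over thinned cells had a median of 0.05 over the 36 pairs in 7406 A cells and 0.03 in 8827 B cells. All cells share 1 library and were cut to 1 depth, sparse counts hold r near 0, and no p is given. S100a6 with S100a11 was the highest pair, at 0.26 in A cells and 0.20 in B cells. S100a10 with S100a11 gave 0.14 and 0.17, and S100a6 with S100a10 gave 0.18 and 0.15. In A cells S100g was at 0.02 with S100a6 and -0.01 with S100a11, and higher with S100a4 (0.17) and S100a1 (0.10). There S100a4 was likewise low with S100a10 (0.01) and S100a11 (0.03). S100a4 with S100a6 was at 0.08 in A cells and 0.18 in B cells. S100a6 with S100a11 was at 0.39 and 0.28 with cells thinned to 6000 UMIs instead, and at 0.19 and 0.20 at 2000 UMIs. Each depth kept only cells with at least that many UMIs, so the set of cells changed along with the depth. By Spearman's rho in B cells S100a6 with S100a4 (0.18) was above S100a6 with S100a11 (0.17).

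**Figure D5:**
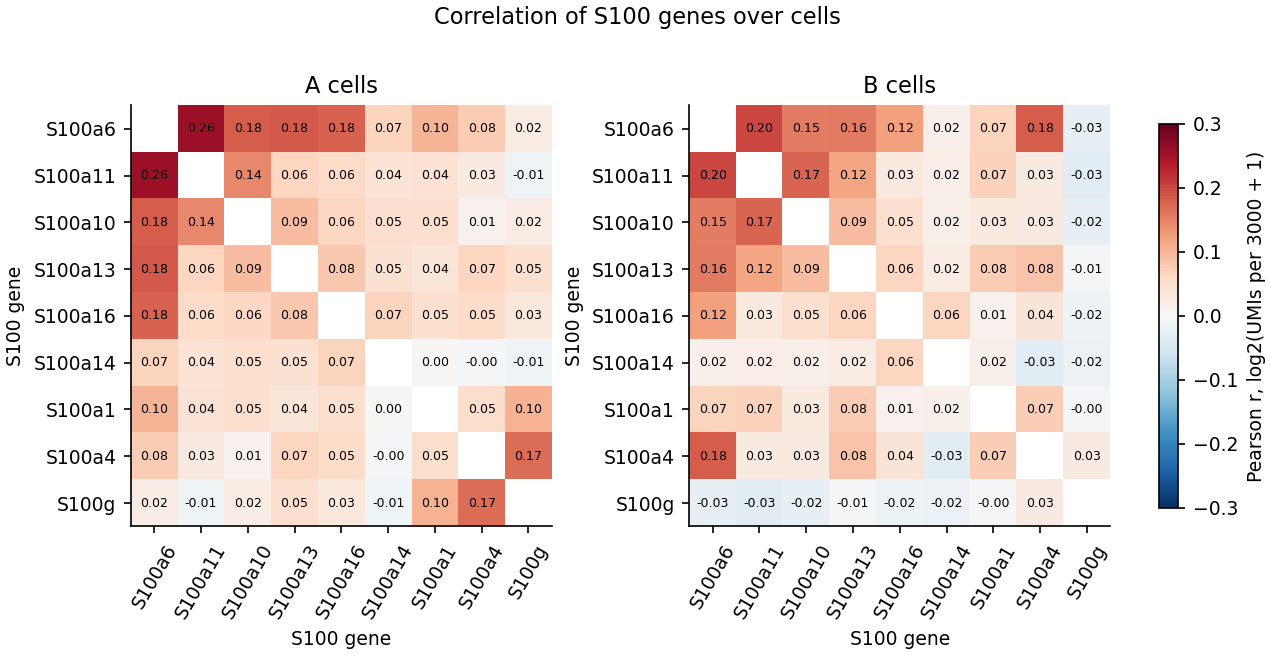
The plot of correlations shows Pearson's r of each pair of S100 genes over thinned A cells (left) and B cells (right), coloured from -0.3 to 0.3, with the value printed in each square. S100a6 has its highest values with S100a11 in both panels, and S100g has its highest, 0.17, with S100a4 in A cells.

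In 851 A cells with 2 or more S100g UMIs after thinning, S100a4 was at 1619 CPM against 1099 CPM in 5396 A cells with none after thinning, a log2 ratio of 0.56. These CPM come from the full counts, in which the latter cells held 822 S100g UMIs. S100a1 was at 208 and 137 CPM (0.60). Both lie inside the range of -0.46 to 0.73 that held 90% of genes in this comparison. S100a6 and S100a11 were nearly level, at 0.01 and -0.06. The S100g-rich cells had a median of 4485 UMIs and 3.53% mitochondrial UMIs, the others 4880 UMIs and 3.11%.

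Genes with the pattern most like an S100 gene were ranked by r over thinned cells, in classes where that gene had a UMI in at least 20% of cells (not S100a14 in A or S100g in B), out of the 3524 genes in A and 3271 in B that reached 50 CPM there. For S100g in A cells they were Gm5886 (0.36), the gut lectin Lgals4 (0.32), Tmigd1 (0.31), Ddt (0.29) and Sult1c2 (0.27), where 99% of genes lay below 0.17. For S100a4 they were the fatty acid binding protein genes Fabp5 (0.25) and Fabp4 (0.19), Gm5886 (0.22), Ranbp3l (0.18) and S100g (0.17) in A cells, and Clu (0.19), S100a6 (0.18), Crip1 (0.14), Malat1 (0.13) and Cald1 (0.12) in B cells. For S100a6 they were S100a11 (0.26), the membrane protein Tm4sf1 (0.23), galectin-3 gene Lgals3 (0.22) and the simple keratins Krt19 (0.21) and Krt18 (0.19) in A cells. In B cells they were Clu (0.26), Tm4sf1 (0.26), Lgals3 (0.20), S100a11 (0.20) and Rps24 (0.19). For S100a11 in B cells they were S100a6 (0.20), S100a10 (0.17), the annexin Anxa5 (0.14), Rpl34 (0.13) and Tmsb4x (0.12). In A cells they were S100a6 (0.26), Tm4sf1 (0.18), Krt18 (0.15), S100a10 (0.14) and Fbln2 (0.14), with no annexin. Krt19 was among the 5 genes most like S100a13 and S100a16 in both classes, at 0.10 to 0.14.

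In the chromosome 3 gene order, S100a4 lay among genes that were higher in B cells. From S100a1 to S100a11, RefSeq lists 99 genes, of which 70 were among the features and 12 had at least 10 CPM in a class. Of these 12, 9 were S100 genes, 9 were at least 2-fold higher in B cells, beside 7.26% of all genes, and 0 in A cells, beside 10.3%. These 9 include S100a7a, which helped to set the classes, and S100a11, S100a13, S100a14 and S100a16, which were chosen on this contrast, so nothing is read from the count. S100a4 was the 1 gene of the 12 with a log2 ratio above 0, a direction not seen at a mitochondrial share of 3% or more. Below 10 CPM, Sprr2a3 was also higher in A cells, at 6.31 and 0.49 CPM (log2 ratio 3.68), and was named after its value was seen; reads of its near-identical Sprr2 copies may be split by the counting. S100a4 lies between S100a3 (2.11 and 15.4 CPM, log2 ratio -2.87) and S100a2 on one side and S100a5 and S100a6 on the other. S100a2 was at 0.37 and 3.43 CPM, and S100a5 at 0.30 and 0.34 CPM, both below 10 CPM. S100a7a was at 5.44 and 450 CPM. The non-S100 genes of the 12 were Sprr1a (17.1 and 122 CPM), Ivl (3.73 and 10.7 CPM) and Crct1 (1.24 and 26.2 CPM). Sprr1a and Ivl encode proteins of the cornified envelope of skin. S100a10 lies just past S100a11. The median log2 ratio was 0.05 over 480 genes of chromosome 3 with at least 10 CPM, 0.11 over 240 genes of the X chromosome that holds S100g, and 0.17 over all.

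The inflammatory pair S100a8 and S100a9, best known from neutrophils, had 14 and 2 UMIs in A cells and 510 and 150 UMIs in B cells. In B cells that was 9.66 and 2.84 CPM. The neutrophil genes Elane, Mpo and Cd177 had 0 UMIs in both classes, and Ly6g had 431 UMIs in A cells and 132 in B cells. S100b had 13 and 6 UMIs, S100z had 10 and 33, and S100a7l2 had none.

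Among 13 genes for release and cell-surface reception of S100 proteins, 8 had at least 10 CPM, with a median log2 ratio of -0.15. At least 2-fold higher in A cells was 1 of the 8 (10.3% of all genes), and 1 was in B cells (7.26%). The receptor RAGE, encoded by Ager, was nearly undetected, with 6 and 21 UMIs. Tlr4 was at 14.9 CPM in A cells and 7.14 CPM in B cells (log2 ratio 1.06). Egfr was at 5.29 and 88.0 CPM (-4.06). Basigin, encoded by Bsg and a receptor for S100a9, was at 566 and 610 CPM, and the integrin gene Itgb1 at 570 and 532 CPM. Of 16 intracellular partners with at least 10 CPM, 2 were at least 2-fold higher in B cells, Ahnak and Myh10, beside 7.26% of all genes, and 0 in A cells, beside 10.3%. Their median log2 ratio was -0.13, and the chaperone gene Hspa8 was at 1451 and 1751 CPM.

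Of 12 genes for calcium entry, stores and pumps with at least 10 CPM, 4 were at least 2-fold higher in A cells, beside 10.3% of all genes, and 0 in B cells, beside 7.26%. The median log2 ratio of the 12 was 0.24, against 0.17 over all genes. The 4 were the sodium-calcium exchanger Slc8a1 (12.9 and 1.91 CPM, 2.75), the store-release channels Itpr1 (44.3 and 19.8 CPM, 1.16) and Itpr2 (26.1 and 12.1 CPM, 1.11), and the store sensor Stim1 (59.9 and 27.8 CPM, 1.10). Orai1, Itpr3 and Mcu had ratios below 0, at -0.44, -0.37 and -0.31. The plasma membrane pump Atp2b1, which works with calbindin-D9k in absorptive cells, was at 353 and 305 CPM. Trpv6, the calcium entry channel of the same route, had 0 UMIs in both classes. The vitamin D receptor gene Vdr had 4 and 41 UMIs, and none of the 4 vitamin D genes reached 10 CPM. Of 11 other EF-hand genes with at least 10 CPM, 0 were past 2-fold in either direction.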

How the data were processed

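Expression was measured in 1 droplet library of the pooled clones 76 and 84. The deposited matrix holds whole-number UMI counts per gene and cell barcode, not normalized; per the file headers the authors wrote it with Cell Ranger 8.0.1, and the submitters' processing notes name the build GRCm39. The annotation release, the use of introns and the barcode filter are not given in the sources used here. All features had a gene symbol in the files.

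The 9 genes, the gene lists and the classes were chosen with earlier results of these data known. UMIs were summed over the cells of a class and divided by the class total (40272805 in A, 52771426 in B cells) to give CPM. Sums have exact Poisson intervals, shares exact Clopper-Pearson intervals and ratios exact conditional binomial intervals, at 95%. Shares, variances, correlations and states used cells thinned to 3000 UMIs. Doublets were kept, and removed in an alternative with Scrublet in scanpy 1.11.5. The scripts were tested on simulated counts. Named genes were the 9, all other S100 genes, and genes of the chromosome 3 region. The 5 genes most like an S100 gene were named in full only for S100g, S100a4, S100a6 and S100a11, a choice made with the values seen. From a list, the most abundant gene and up to 3 with the largest ratio were named. Some other list genes were named for their role as partners or after their values were seen. Gene order and promoters came from RefSeq on GRCm38.p6, and no protein sequence was used. Class edges were soft: the 1650 A cells with exactly 2 UMIs of the A genes and none of the B genes had 634 CPM of S100a10, and the 1535 cells just outside the rule, with 1 UMI, had 638 CPM. For B the 1197 and 950 cells had 2180 and 2010 CPM.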

Additional observations from a re-analysis of the deposited data

How the results depend on the processing

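No paired analysis was possible because 1 library was analysed, with no replicate of either class. The summed log2 ratio of A over B for the 9 S100 genes was -0.88 and stayed below 0 in each of the 18 alternatives run. It was -0.95 with a stricter class rule, -0.87 without S100a7a in the rule, and -0.86 and -0.93 with the first-listed or the second-listed class genes alone. It was -0.87 with a strict and -0.89 with a loose cell filter, -0.91 without marked doublets and -0.90 as a mean of per-cell CPM. It was -0.90 with mitochondrial, ribosomal and S100 genes taken out of the denominator, -0.99 centred on the median gene and -0.90 after thinning. Bins were chosen after seeing the data. Within UMI bins from low to high it was -0.92, -0.91, -0.87 and -0.76, and within mitochondrial bins -0.83, -0.87 and -0.79. All 18 moves exceed the counting interval, which is narrow at this depth. S100a4 was the 1 gene whose direction turned, to -0.038 within a mitochondrial share of 3% or more, and the cause was not tested. Over the 11 alternatives other than the bins it ran from 0.31 to 0.58, and S100g from 4.35 to 5.43. The S100g ratio between Epcam-list and Tnc-list A cells was 3.42, and 2.46 with a rule of 1 UMI. Depth limits S100a14 and the S100g trace in B cells.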
